A study of Caenorhabditis elegans with 4 samples.

Results

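The small heat shock protein genes of Caenorhabditis elegans were followed in the cey-1 cey-4 double mutant and in wild type. They were taken as the rows of the count table whose gene ID carries one of 10 symbols. These symbols matched 11 of the 20182 rows, because the name table gives hsp-16.1 to both WBGene00002015 and WBGene00002017, and RefSeq calls the locus of WBGene00002017 hsp-16.11. The strain called c14 carries cey-1 (rrr12) together with cey-4 (ok858), and N2 is the standard wild-type strain that served as its control. Each strain gave 2 libraries of total RNA from whole young adults raised from hatched L1 larvae on OP50 bacteria, with no heat treatment named in the labels. Nothing in the labels says whether the replicates were grown as separate cultures, and the p-values therefore rest on a spread that may be technical.

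Small heat shock proteins hold unfolding proteins in a soluble or sequestered state without using ATP, and pass them on to the HSP70 machinery. They share an alpha-crystallin domain and mostly work as large oligomers. In worms the hsp-16 genes are nearly silent until the heat shock factor HSF-1 turns them on. Others are made without heat, by tissue, stage or insulin signalling, and several HSP12 proteins are short forms with little chaperone activity in the test tube. The genes cey-1 and cey-4 encode Y-box proteins, which coat mRNA through a cold shock domain.

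Summed counts were 33009708 and 24717311 in c14 replicates 1 and 2, and 29773406 and 31311497 in N2 replicates 1 and 2. The labels were checked on the mutated genes. Levels are CPM, counts relative to the library total after TMM scaling. Transcripts of cey-4 stood at 10.1 and 11.3 CPM in c14, against 787 and 762 CPM in N2, and those of cey-1 at 21.6 and 24.5 CPM in c14, against 144 and 130 CPM in N2. Of 13944 genes that passed the expression filter, 1821 were called higher in c14 (13.1%) and 1858 lower (13.3%) by edgeR's quasi-likelihood test at a Benjamini-Hochberg adjusted p below 0.05.

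Of the 11 rows, 7 passed the filter, 3 of these were called lower in c14 and 0 higher, and 4 were not called. The 3 were hsp-43, sip-1 and hsp-12.1, all expressed without heat shock, like every member that passed the filter. As no hsp-16 row passed it, these calls do not set such genes against heat-induced ones. The median log2 fold change of the 7 was -0.46, against -0.012 over all genes tested. The other 4 rows, namely hsp-12.6, hsp-16.2 and both rows of hsp-16.1, had too few counts for the test. The count of 3 lower of 7 stands beside 13.3% of all tested genes called lower, and 0 higher beside 13.1%. In 5 of the 7 both c14 libraries lay below both N2 libraries, as they did for 33.5% of all tested genes.

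**Figure D1:**
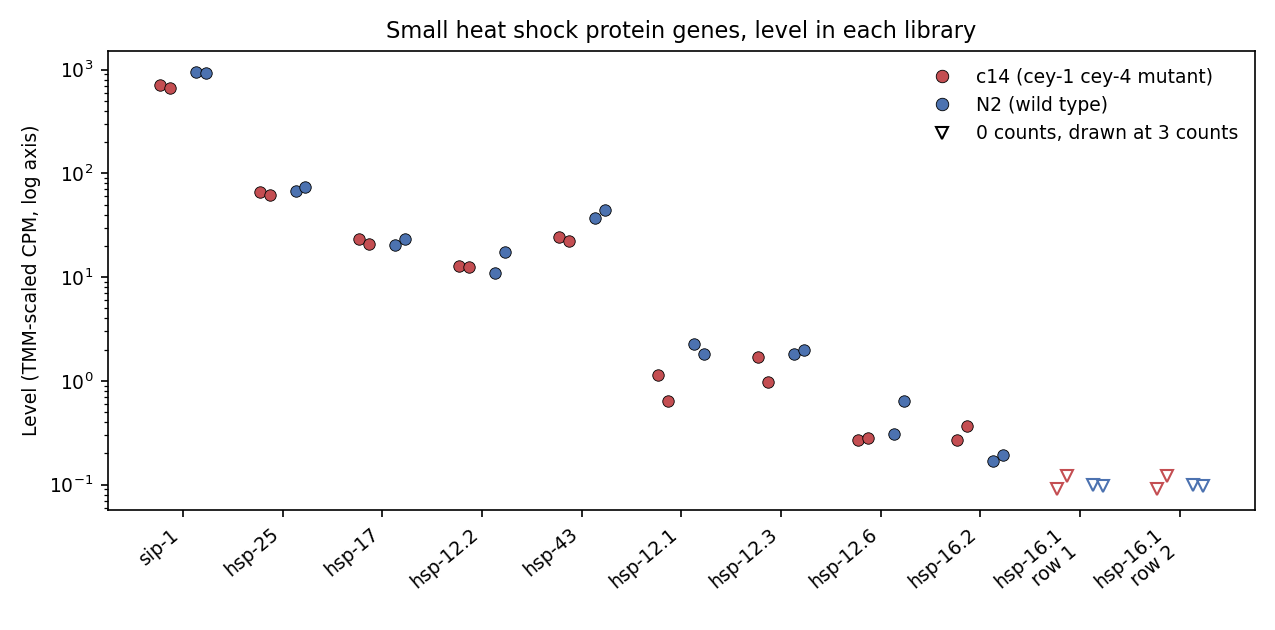
Level of each of the 11 rows in each library, as TMM-scaled CPM on a log axis, ordered by mean CPM per kb, with the 2 c14 libraries (red) left of the 2 N2 libraries (blue). Open triangles mark rows with 0 counts, drawn at the level of 3 counts. The points of sip-1 lie between 660 and 956 CPM, far above the others, and those of hsp-43, sip-1 and hsp-12.1 are lower in both c14 libraries.

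The members differed widely in level. Per length, which allows genes to be compared, sip-1 stood highest with 1030 to 1490 CPM per kb over the 4 libraries. It was followed by hsp-25 with 54.1 to 65.6 and hsp-17 with 36.2 to 41.6 CPM per kb. Each of these ranges lay clear of the next. The range of hsp-12.2 (21.1 to 33.5 CPM per kb) overlapped that of hsp-43, which averaged 16.8 ± 0.847 CPM per kb in c14 and 29.5 ± 3.89 in N2 (SD, n = 2 each). Lower down, and clear of hsp-43, the ranges of hsp-12.1 (1.29 to 4.59) and hsp-12.3 (1.45 to 2.99) overlapped each other. At the low end hsp-12.6 (0.35 to 0.833 CPM per kb) and hsp-16.2 (0.295 to 0.627) could not be ordered either. The order was thus sip-1, hsp-25, hsp-17, then hsp-12.2 with hsp-43, then hsp-12.1 with hsp-12.3, then hsp-12.6 with hsp-16.2. Both rows of hsp-16.1 had 0 counts and were given no place, since reads that match both copies may have been left out.

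The gene sip-1 encodes the small heat shock protein of eggs and embryos, which works best at acidic pH. It lies on the minus strand of chromosome III, positions 10506106 to 10506801 in the WBcel235 annotation, with 640 exon bases. The counts' own build is not given in the sources. Its level was 713 and 660 CPM in c14, against 956 and 933 CPM in N2. Both c14 libraries were lower than both N2 libraries, by more than the replicates of either strain differed. The transcript fell to 72.7% of the N2 level, with a log2 fold change of -0.46 ± 0.09 (SE, edgeR adjusted p = 0.00521). This call was lost once each library's smooth trend of level on exon length was removed (-0.19 ± 0.09, edgeR adjusted p = 0.1345). It was also lost without c14 replicate 1 (-0.50, edgeR adjusted p = 0.05936) or c14 replicate 2 (-0.38, edgeR adjusted p = 0.1512). Counts of sip-1 can hold reads of F43D9.8, which overlaps its exons on the other strand and is not analysed here.

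As sip-1 took 84.7% and 84.7% of the summed member CPM in c14, and 87.2% and 85.0% in N2, it sets the family total. In whole worms fewer cells of a type and less RNA per cell cannot be told apart. Germline markers, a list of 16 genes that includes P granule and meiotic genes, had 0 called higher and 2 lower (cgh-1 with a log2 fold change of -0.63 ± 0.09 and car-1 with -0.32 ± 0.09), and a median of -0.15, beside 13.3% of all tested genes called lower. Their summed level was 4330 and 4400 CPM in c14, against 5460 and 4960 CPM in N2. Oocyte and embryo markers had 0 of 18 higher and 2 lower (egg-1 with -0.34 ± 0.09 and cpg-2 with -0.31 ± 0.10), a median of -0.16, and summed levels of 8600 and 9240 CPM in c14, against 10700 and 9640 CPM in N2. With all libraries, neither share of lower calls exceeds 13.3%. With the length trend removed, 3 germline and 5 oocyte markers were lower, beside 8.73% of all tested genes. The calls of car-1, egg-1 and cpg-2 were lost without either c14 replicate (-0.36 and -0.24, -0.28 and -0.36, -0.24 and -0.34), and that of cgh-1 was kept. That of car-1 was also lost with the length trend removed (-0.24), under the replicate block (-0.32) and where a mean of at least 50 counts was required (-0.29). That of cpg-2 was lost under these settings too (-0.27, -0.31 and -0.28), with other scalings or limma (-0.30 to -0.28) and without N2 replicate 1 (-0.23). Leaving out an N2 replicate added calls. Without N2 replicate 2 pgl-1 (-0.41), glh-2 (-0.29) and gld-1 (-0.26) of the germline list were called lower. So were oma-2 (-0.79), puf-5 (-0.36), rme-2 (-0.35), lin-41 (-0.30), oma-1 (-0.30), puf-11 (-0.30) and cpg-1 (-0.27) of the oocyte list. Without N2 replicate 1 him-3 was called lower (-0.41) and mex-5 higher (0.33). No marker of either list was at 0 in all libraries. Both lists were thus lower in sum in c14, and their part in the fall of sip-1 was not tested.

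The gene hsp-43, named for the larger mass of its protein, lies on the minus strand of the X chromosome, positions 6233151 to 6235543, and has 1385 exon bases in 7 merged exons, the longest of the members. Its level was 24.1 and 22.4 CPM in c14, against 37 and 44.6 CPM in N2. The groups did not overlap, and the gap between them was wider than the gap between the N2 replicates, the wider of the replicate gaps. The transcript fell to 57.1% of the N2 level (log2 fold change -0.81 ± 0.12, edgeR adjusted p = 0.001086). Of all tested genes 4.24% had a lower log2 fold change. The annotation lists no gene that overlaps it. It was the member called lower under every alternative run, with log2 fold changes of -0.94 to -0.65 and of -0.72 ± 0.11 with the length trend removed (edgeR adjusted p = 0.001165).

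The HSP12 genes encode the shortest proteins of the family, little more than the alpha-crystallin domain. Among them hsp-12.1 on chromosome I (498 exon bases) was counted 38 and 16 times in c14, against 67 and 57 times in N2, or 1.14 and 0.645 CPM in c14, against 2.28 and 1.83 CPM in N2. Both c14 libraries were lower than both N2 libraries, and c14 replicate 2 stood lowest. The transcript fell to 44.9% of the N2 level (log2 fold change -1.16 ± 0.29, edgeR adjusted p = 0.01516). The call was lost with the length trend removed (-0.87 ± 0.29, edgeR adjusted p = 0.0552) and without c14 replicate 2 (-0.82, edgeR adjusted p = 0.1487). It was not tested where a mean of at least 50 counts was required.

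The gene hsp-12.2 on chromosome III (518 exon bases) had 12.7 and 12.5 CPM in c14, against 10.9 and 17.4 CPM in N2. The c14 libraries lay between the N2 libraries, so the groups overlapped. Its log2 fold change of -0.17 ± 0.19 was not called (edgeR adjusted p = 0.5581). It turned to 0.14 after removal of the length trend and to 0.22 without N2 replicate 2. Without N2 replicate 1 it was -0.46 and called lower (edgeR adjusted p = 0.01388), so the direction rests on which N2 library is kept. Its exons overlap those of C14B9.8 on the other strand, which was far more abundant at 169 and 179 CPM in c14, against 150 and 152 CPM in N2, and whether counting used strand is not given.

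The genes hsp-12.3 and hsp-12.6 are neighbours on the minus strand of chromosome IV with 721 bases between them. The level of hsp-12.3 was 1.70 and 0.967 CPM in c14, against 1.81 and 1.99 CPM in N2. Both c14 libraries were lower, c14 replicate 1 only slightly, and the log2 fold change of -0.47 ± 0.28 was not called (edgeR adjusted p = 0.2498). It was -0.96 without c14 replicate 1 and -0.12 without c14 replicate 2, so its size rests on which c14 library is kept. The gene hsp-12.6, known as a DAF-16 target raised when insulin signalling is low, was counted 9 and 7 times in c14, against 9 and 20 times in N2. Pooled by strain, 16 counts in c14 against 29 in N2 gave a ratio of 0.573 with an exact 95% interval of 0.291 to 1.09 that covers counting error only. The interval includes equality, so these counts do not settle whether the strains differ. Levels were 0.269 and 0.282 CPM in c14, against 0.307 and 0.641 CPM in N2, with the N2 replicates far apart. Both c14 libraries lay below both N2 libraries, as for 33.5% of all tested genes.

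The gene hsp-25 encodes the small heat shock protein found at the dense bodies and M-lines of body wall muscle. It lies on the X chromosome, positions 6034463 to 6039644 of the minus strand, with 1134 exon bases. Its level was 65.8 and 61.3 CPM in c14, against 67.8 and 74.4 CPM in N2. Both c14 libraries were lower than both N2 libraries, but the distance from c14 replicate 1 to N2 replicate 1 was smaller than the distance between the replicates of either strain. Its log2 fold change was -0.16 ± 0.10 and not called (edgeR adjusted p = 0.2564). Most muscle markers stood the other way, with 9 of 15 called higher beside 13.1% of all tested genes, 0 lower and a median log2 fold change of 0.38. As for hsp-25, both c14 libraries lay below both N2 libraries for unc-27 (-0.26) and pat-3 (-0.09), neither of them called. Left-out replicates added a lower call of unc-27 (-0.40 without N2 replicate 1). They also added higher calls of mup-2 (0.34) and deb-1 (0.30) without N2 replicate 2. The largest changes were those of unc-22 (0.91 ± 0.10), unc-89 (0.80 ± 0.10) and unc-54 (0.61 ± 0.10), which encode twitchin, obscurin and a myosin heavy chain. These are long genes, with 23368, 25942 and 6204 exon bases, and with the length trend removed their log2 fold changes were 0.48, 0.36 and 0.38, still called. The shorter gene unc-97 (1527 exon bases), at 0.35 as counted, then stood above unc-89 and unc-54 at 0.43. The list then had 9 higher and 0 lower, beside 14.1% and 8.73% of all tested genes, and a median of 0.28. Without c14 replicate 2 the calls of unc-54 (0.62), atn-1 (0.49), myo-2 (0.48), myo-3 (0.47), myo-1 (0.44), unc-15 (0.38) and unc-97 (0.38) were not made. Without c14 replicate 1 the calls of myo-3 (0.46), unc-15 (0.43), atn-1 (0.41) and unc-97 (0.37) were not made either. The calls of unc-22 and unc-89 were kept without either c14 replicate. The summed level of the muscle list was 17100 and 17800 CPM in c14, against 11600 and 12000 CPM in N2. Whether hsp-25 differs from the muscle list was not tested. The exons of hsp-25 overlap those of ipp-5 on the other strand, which had 16.7 and 15.1 CPM in c14, against 16.8 and 20.0 CPM in N2.

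The gene hsp-17, which is present without heat shock and also rises with it, was kept apart from both classes. It lies on chromosome V with 560 exon bases, and its protein is known to promote protein aggregation in the test tube and in worms. Its level was 23.3 and 20.7 CPM in c14, against 20.3 and 23.3 CPM in N2. The libraries of the strains interleave, and the log2 fold change was 0.02 ± 0.12 (edgeR adjusted p = 0.9385). With the length trend removed it was 0.30 ± 0.10 and still not called (edgeR adjusted p = 0.05955). The gene F52E1.14, whose exons overlap those of hsp-17 on the other strand, fell to 35.8 and 37.4 CPM in c14, against 54 and 56.3 CPM in N2 (log2 fold change -0.59 ± 0.10, edgeR adjusted p = 0.001876). Reads of these neighbours cannot be told apart without strand.

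**Figure D2:**
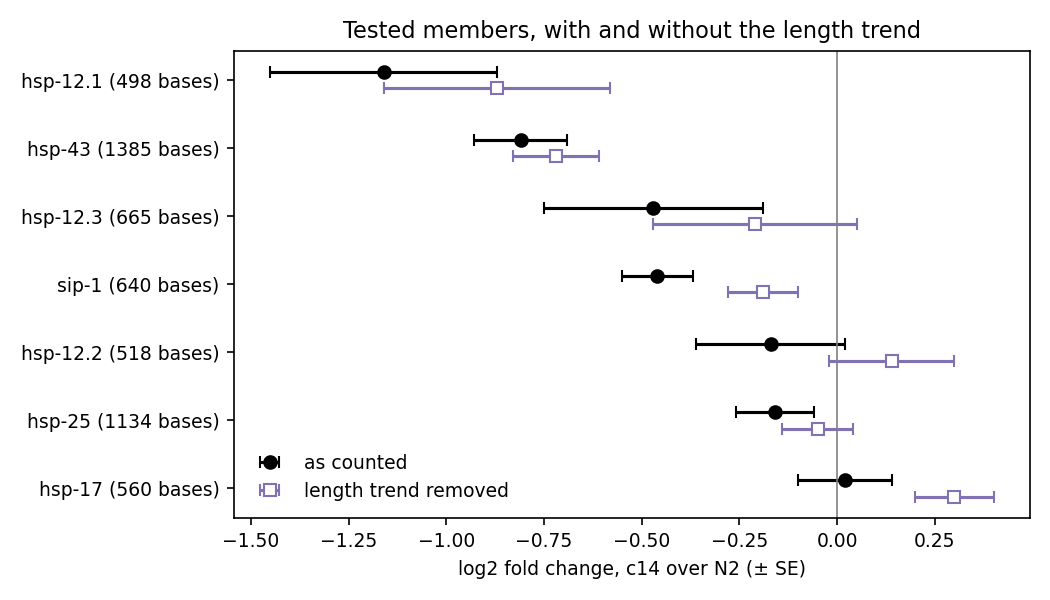
Log2 fold change, c14 over N2, of the 7 tested members as counted (black circles) and with each library's trend on exon length removed (open squares), bars showing SE. Removing the trend moved sip-1 from -0.46 to -0.19 and hsp-17 from 0.02 to 0.30, while hsp-43 went from -0.81 to -0.72.

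Of the 3 heat-induced rows, hsp-16.2 had few counts in either strain and the others had 0. The gene hsp-16.2, on chromosome V at positions 1804334 to 1804957, was counted 9 and 9 times in c14, against 5 and 6 times in N2, or 0.269 and 0.363 CPM in c14, against 0.17 and 0.192 CPM in N2. Both c14 libraries were higher than both N2 libraries, as for 30.6% of all tested genes. The ratio of the pooled counts, 18 in c14 against 11 in N2, was 1.70 with an exact 95% interval of 0.761 to 3.98 for counting error, which includes equality. Fitted without a filter on low counts its log2 fold change was 0.78 ± 0.68 (edgeR adjusted p = 0.4862).

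Both rows of hsp-16.1 had 0 counts in all 4 libraries, which allows a level of up to 0.09 and 0.12 CPM in c14, and 0.1 and 0.096 CPM in N2, for 3 counts per library. These rows are near-identical copies on opposite strands of chromosome V. One spans positions 9087293 to 9087782 and the other spans 9090077 to 9090604. Both rows of hsp-16.48, which lie between them, were also at 0 in all libraries. The sources do not give how reads that match several copies were counted, so 0 counts in these copies cannot be told apart from reads left out for matching both.

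Summed over the 7 constitutive members, the level was 819 and 758 CPM in c14, against 1080 and 1070 CPM in N2, a log2 difference of -0.45. The length trend was not removed from the sums. With it removed, the log2 fold change of sip-1, which makes up most of the constitutive sum, went from -0.46 to -0.19. Without sip-1 the other 6 constitutive members summed to 106 and 98.2 CPM in c14, against 120 and 141 CPM in N2, a log2 difference of -0.36. The inducible members, which rest on hsp-16.2 alone, summed to 0.269 and 0.363 CPM in c14, against 0.17 and 0.192 CPM in N2, a log2 difference of 0.80. The constitutive sum was therefore lower in both c14 libraries and the inducible sum higher in both. The inducible sum, 18 counts in c14 against 11 in N2, is too small for the directions of the classes to be set against each other.

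The family members outside the 10 symbols gave no call. Of 7 rows, 2 were tested, with 0 higher and 0 lower, beside 13.1% and 13.3% of all tested genes. With 2 tested rows, 0 calls do not set these genes apart from all tested genes. The alpha-crystallin gene Y55F3BR.6 had 15.4 and 18.8 CPM in c14, against 18.9 and 19.5 CPM in N2 (log2 fold change -0.18 ± 0.13), and ZK1128.7 had 5.5 and 4.67 CPM in c14, against 4.81 and 6.31 CPM in N2 (-0.12 ± 0.18). The gene hsp-16.41, which is transcribed away from hsp-16.2 across 220 bases, was counted 17 and 3 times in c14, against 6 and 7 times in N2. Its c14 replicates lay on either side of N2, so it did not repeat the order seen in hsp-16.2. The gene F08H9.4 was counted 3 and 3 times in c14, against 0 and 0 times in N2, and F08H9.3 was counted 2 and 0 times in c14, against 1 and 2 times in N2.

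Most of these genes are short, and fold changes in these libraries followed exon length. The members spanned 438 to 1385 exon bases with a median of 578, against a median of 1420 among tested genes. Of 3816 tested genes with under 1000 exon bases, 24% were called lower in c14 and 11.1% higher, with a median log2 fold change of -0.19. With the trend removed these shares were 10.8% lower and 17.2% higher, and the median was 0.04. Across tested genes above a mean of 5 CPM, which are not independent replicates, length also followed the difference between replicates, with a Spearman correlation of 0.38 for c14 replicate 2 minus 1 and of -0.31 for N2 replicate 2 minus 1. Among these short genes 25.7% had a lower log2 fold change than sip-1 and 3.64% a lower one than hsp-12.1. With the trend removed 1 member, hsp-43, was called lower beside 8.73% of all tested genes, 0 were higher beside 14.1%, and the median of the 7 was -0.19.

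**Figure D3:**
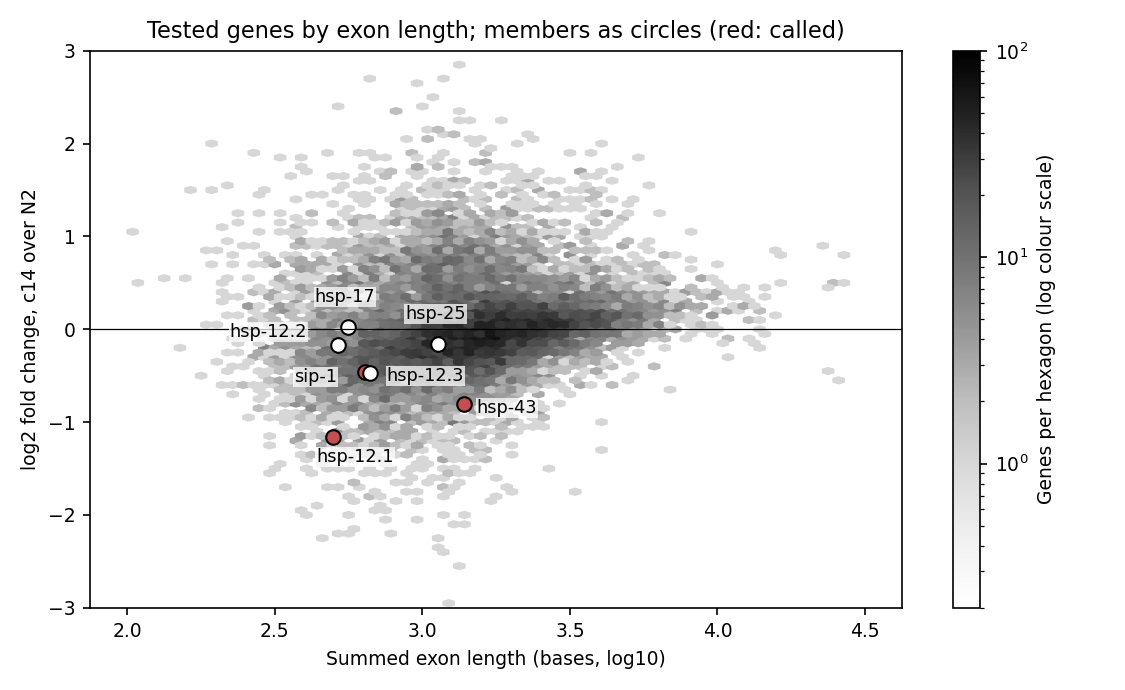
Log2 fold change, c14 over N2, against summed exon length (log10 bases) for the tested genes with an annotated length, as counts per hexagon on a log grey scale, with the 7 tested members as circles and called members in red. Genes beyond 3 on the log2 scale are not drawn. The grey cloud is lower on the left, where sip-1, hsp-12.1, hsp-12.2, hsp-12.3 and hsp-17 lie, while hsp-43 lies below the cloud's centre near the median length.

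Neither hsf-1 nor daf-16 was called with all 4 libraries. The transcript of hsf-1, the heat shock factor, stood at 85.5 and 96.1 CPM in c14, against 97.6 and 93.1 CPM in N2 (log2 fold change -0.07 ± 0.10), and the groups overlapped. That of daf-16, the FOXO factor of insulin signalling, stood at 112 and 122 CPM in c14, against 131 and 77.8 CPM in N2 (0.17 ± 0.19), with the N2 libraries far apart. Without N2 replicate 1 daf-16 was called higher (0.59). Of 10 regulators 2 were called higher and 0 lower, beside 13.1% of all tested genes called higher. They were pqm-1, a zinc finger factor that shares targets with DAF-16 (12.8 and 14.1 CPM in c14, against 9 and 7.59 CPM in N2, log2 fold change 0.69 ± 0.14, edgeR adjusted p = 0.004899), and hif-1, the hypoxia factor (267 and 280 CPM in c14, against 202 and 199 CPM in N2, 0.45 ± 0.09, edgeR adjusted p = 0.004515). The call of hif-1 was not made without c14 replicate 2 (0.44, edgeR adjusted p = 0.0672).

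Chaperones that take over clients from small heat shock proteins were mostly not called. Of 14 tested genes for HSP70, HSP90, HSP110 and their cytosolic co-chaperones 0 were higher and 2 lower, beside 13.1% and 13.3% of all tested genes, with a median log2 fold change of -0.10. These were bag-1, a nucleotide exchange factor of HSP70 (39.6 and 35.4 CPM in c14, against 52.8 and 56.4 CPM in N2, -0.54 ± 0.10, edgeR adjusted p = 0.003857), and daf-41, the p23 co-chaperone of HSP90 (363 and 313 CPM in c14, against 434 and 450 CPM in N2, -0.39 ± 0.10, edgeR adjusted p = 0.01595). Neither was called without c14 replicate 2 (-0.44 and -0.25), and daf-41 was not called without c14 replicate 1 (-0.49) or with the length trend removed (-0.15). Of the heat-induced HSP70 genes, hsp-70 had 30 and 20 counts in c14, against 21 and 17 counts in N2. Its level was 0.897 and 0.806 CPM in c14, against 0.716 and 0.545 CPM in N2. Both c14 libraries were higher, as for 30.6% of all tested genes. The log2 fold change of hsp-70, 0.44 ± 0.32, was not called (edgeR adjusted p = 0.3461). The near-identical copies F44E5.4 and F44E5.5 had 0 counts in all libraries, which, as for hsp-16.1, cannot be told apart from reads left out for matching both.

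Of 9 tested genes in a list of DAF-16 targets, 4 were lower and 1 higher, beside 13.3% and 13.1% of all tested genes, with a median log2 fold change of -0.28. With the length trend removed, 4 were lower and 2 higher, beside 8.73% and 14.1% of all tested genes, with a median of 0.00. The transcripts of dod-6 (1.11 and 1.09 CPM in c14, against 2.97 and 5.86 CPM in N2, -2.01 ± 0.33), gst-4 (-1.19 ± 0.15), and sod-3, a mitochondrial superoxide dismutase gene (-1.03 ± 0.22), fell most. The other calls were dod-17 (-0.64 ± 0.12) and dod-24 (0.40 ± 0.12). Calls were lost for sod-3 without c14 replicate 1 (-0.83) and for dod-24 without either c14 replicate (0.42 and 0.44) or N2 replicate 1 (0.26). As background, dod-17 and dod-24 are known as genes lowered when insulin signalling is low, and gst-4 as a target of SKN-1, so the list does not stand for DAF-16 alone.

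The counts for other tissue markers stand beside the same 13.1% higher and 13.3% lower. Sperm markers had 14 of 18 rows higher and 0 lower, with a median log2 fold change of 0.85. They were led by ssp-9 (1.84 ± 0.37 in its called row), nspd-6 (1.54 ± 0.15) and spe-42 (1.29 ± 0.17). Their sums were 549 and 537 CPM in c14, against 367 and 401 CPM in N2. Without c14 replicate 1 the calls of ssp-9 (1.81), spe-38 (0.74), spe-4 (0.64), gsp-4 (0.46), gsp-3 (0.44), ssp-16 (0.35) and spe-11 (0.24) were lost. The other higher calls, nspd-6 and spe-42 among them, were then kept. The call of spe-11 was also lost without c14 replicate 2 (0.41) and under the replicate block (0.30). Those of spe-38 (0.97) and ssp-16 (0.55) were lost under the DESeq2 test. That of ssp-16 was also lost without N2 replicate 1 (0.39). This setting added a higher call of the other ssp-9 row (1.76) and a lower call of ssp-10 (-0.39). Epidermis markers had 3 of 15 higher, namely elt-1 (0.94 ± 0.15), rol-6 (0.52 ± 0.17) and vab-10 (0.52 ± 0.10). The 2 lower were col-10 (-1.23 ± 0.26) and col-19 (-0.36 ± 0.12). The calls of rol-6 (0.49 and 0.59), col-10 (-1.24 and -1.18) and col-19 (-0.41 and -0.26) were lost without either c14 replicate. That of rol-6 was also lost under the DESeq2 test, the replicate block and without N2 replicate 1 (0.53, 0.52 and 0.43). That of vab-10 was lost without c14 replicate 2 (0.47) and with the length trend removed (0.09). That of col-19 was also lost without N2 replicate 2 (-0.20) and with the length trend removed (-0.19). Other scalings, limma, the replicate block and a mean of at least 50 counts lost it too (-0.35 to -0.32). The list summed to 5030 and 5060 CPM in c14, against 4830 and 5270 CPM in N2. Intestine markers had 4 of 13 higher and 1 lower, with vit-2 (0.72 ± 0.24), cpr-1 (-0.64 ± 0.10) and asp-1 (0.41 ± 0.11) changed most. Each of the 4 higher calls was lost without c14 replicate 1 and also without c14 replicate 2. The values were then 0.81 and 0.65 for vit-2 and 0.54 and 0.30 for asp-1. For act-5 they were 0.41 and 0.35, and for ges-1 0.40 and 0.40. The list summed to 55200 and 59300 CPM in c14, against 49500 and 33000 CPM in N2. Most of this sum was vit-6 (34100 and 35700 CPM in c14, against 31300 and 21900 CPM in N2) and vit-2. The level of vit-2 was 17500 and 19700 CPM in c14, against 14900 and 7770 CPM in N2. The call of vit-2 was also lost with DESeq2 size factors (edgeR adjusted p = 0.05212), in the DESeq2 test (adjusted p = 0.2996), where a mean of at least 50 counts was required (edgeR adjusted p = 0.0631) and after removal of the length trend (edgeR adjusted p = 0.08639). No marker of these lists was at 0 in all libraries, and their part in the values of the small heat shock genes was not tested.

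For each called member the 3 genes closest in pattern were sought among 8885 or 8886 other genes with a symbol and a mean of at least 5 CPM, by the Euclidean distance of log2 CPM centred on the gene's mean over the 4 libraries. Closest to hsp-43 were Y54E10A.17 (distance 0.0078), C17G1.2 (0.032) and F19H6.4 (0.049), with log2 fold changes of -0.81, -0.80 and -0.76. Closest to sip-1 were C01G10.9 (0.02), Y105E8A.11 (0.021) and the glucuronosyltransferase gene ugt-62 (0.027). None of these candidates came as close to hsp-12.1, whose nearest were Y47D3A.32 (0.22), the neuropeptide-like gene nlp-26 (0.25) and F22F4.5 (0.26). Genes at the low level of hsp-12.1 itself (0.645 to 2.28 CPM) were outside the search, so its larger distances do not mark an unusual pattern. With 4 libraries such nearness only describes these samples.

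**Figure D4:**
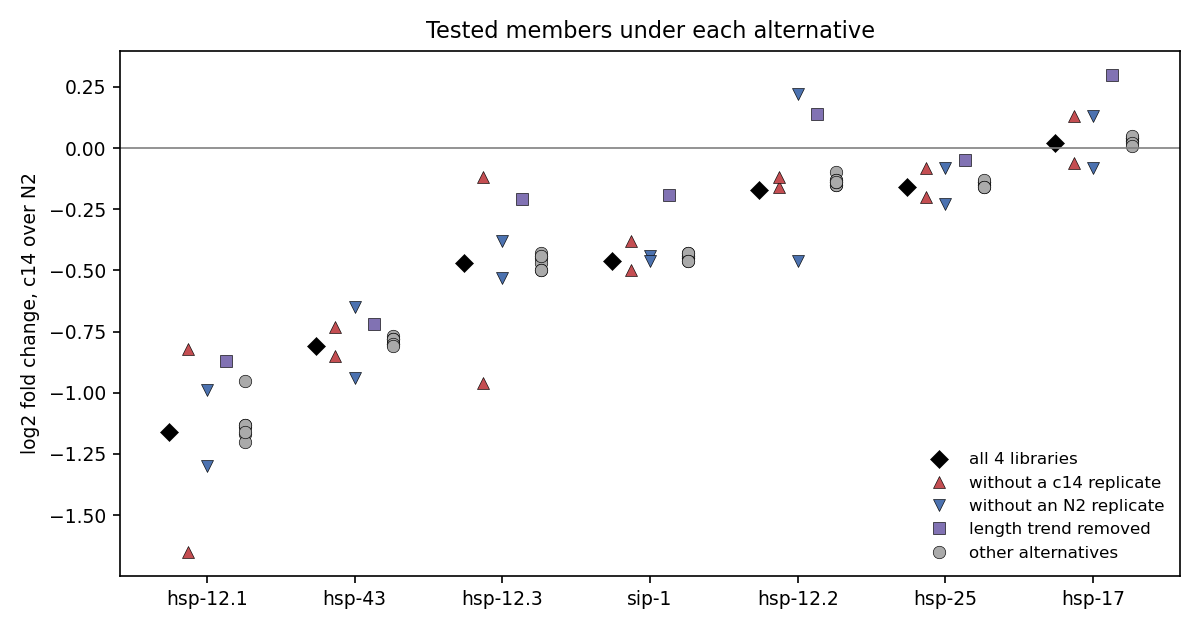
Log2 fold change, c14 over N2, of each tested member with all 4 libraries (diamonds), without a replicate (triangles, red for c14 and blue for N2), with the length trend removed (squares) and under the other alternatives (grey). All points of hsp-43 lie between -0.94 and -0.65, while those of hsp-12.2 and hsp-17 lie on both sides of 0.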

How the data were processed

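Total RNA of whole young adults was extracted with Trizol from lysates shared with ribosome profiling, and sequenced from ScriptSeq v2 libraries, per the labels' protocols. The authors deposited raw counts per gene and a table of log2 values. These log2 values are the counts brought to one library size, with 8 added before the log (largest gap 0.00052). The sources used here do not give the aligner, counter, build, annotation, strand use or treatment of reads with several matches. Groups came from the titles. Names came from a table that gave a symbol to 18778 of 20182 rows, and positions and summed exon lengths from the Ensembl annotation of WBcel235.

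Counts of all genes were tested with edgeR 4.0.16 (R 4.3.3, quasi-likelihood F test, TMM scaling, default expression filter). Benjamini-Hochberg adjustment ran over 13944 genes, and calls were made below 0.05. SE were taken from the fold change and the root of F. CPM are TMM-scaled. The fit was tested on simulated data. Alternatives were DESeq2 1.42.0, limma 3.58.1 on the deposited log2 values, other scalings and filters, each replicate left out, a replicate block, and removal of a lowess trend against exon length in each library (span 0.3). A crossed block was added after the data were seen. No library was a copy of its replicate (chi-square per degree of freedom 8.96 in c14 and 30.3 in N2). The members and lists were chosen with earlier results of these data known. Of each list, the called genes with the largest absolute change are named, up to 3, plus hsf-1, daf-16, cey-1 and cey-4, and, for each called member, the 3 genes closest in pattern. Other genes of a list are also named where a call was lost or gained under an alternative. Figures were drawn with matplotlib. No genome or protein sequence was used here.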

Additional observations from a re-analysis of the deposited data

How the results depend on the processing

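The calls of members as lower numbered 3 with all libraries and 1 to 4 when a replicate was left out, a fit in which the lone library of a strain is assumed to vary like the others. They numbered 1 with the length trend removed, where sip-1 and hsp-12.1 missed the threshold, and 2 where a mean of at least 50 counts was required. The member called lower only without N2 replicate 1 was hsp-12.2. The call of hsp-43 held under each of the 13 alternatives run. Left-out replicates gave hsp-17 log2 fold changes of -0.08 to 0.13 and hsp-12.2 of -0.46 to 0.22, and removal of the trend turned hsp-12.2 to 0.14. Over all genes, left-out replicates gave 961 to 2042 higher and 447 to 2307 lower genes, and removal of the trend 1218 lower. Regulators had 1 to 5 higher and 0 to 1 lower, and chaperone partners 0 to 3 lower, when a replicate was left out. The constitutive sum differed by -0.50 to -0.39 without a replicate, and was not computed with the length trend removed. The inducible sum differed by 0.02 with hsp-17 added, which has far more counts than hsp-16.2.

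The replicate block kept 3 members lower, with 1792 higher and 1727 lower genes overall. The numbers share no stated source, and deviations of same-numbered libraries correlated at -0.043 over all tested genes and at -0.139 above a mean of 5 CPM. The crossed block gave 1912 higher and 2030 lower genes, with 3 members lower. Genes near 1 CPM, such as hsp-12.1 and hsp-12.3, have few counts, and hsp-12.6 and hsp-16.2 are limited by depth.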
